A study of Mus musculus with 40 samples.

Results

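Complex I, the NADH:ubiquinone oxidoreductase of the inner mitochondrial membrane, was followed through the genes whose symbols start with Nduf in muscle taken from the thigh of 40 C57BL/6J males, killed at 9 weeks of age after a fast of 4 hours. All probes with such a platform symbol were taken, and the brightest probe (by its mean over the 40 arrays) stood for each gene, which gave 53 probes and 40 genes among 16593 genes with a symbol. Of the 40, 39 passed a filter that asked a probe to lie above its array's median in at least 20 of the 40 arrays, as did 12467 of 25697 probes in all. Each animal gave 1 array, and its group name gives the diet of the dam and then that of the animal after weaning, each either high-fat (HF) or low-fat (LF). HF_HF males were born to HF dams and fed HF after weaning, HF_LF males were born to HF dams and fed LF, LF_HF males were born to LF dams and fed HF, and LF_LF males were born to LF dams and fed LF, with 10 animals in each group. Dams stayed on their diet through mating, pregnancy and suckling, and coconut oil was the main fat of both diets. The animals came from 12 cages, 5 of which held both post-weaning diets, and cage-mates were treated as independent, so that p-values measure the spread between animals without the cage.

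Complex I is an L-shaped enzyme. Its arm in the matrix holds the N module, which takes electrons from NADH, and the Q module, which passes them to ubiquinone. Its arm in the membrane pumps protons and is built from a proximal and a distal part, and most subunits whose names start with Ndufa, Ndufb or Ndufc are accessory proteins around a conserved core. Assembly factors named Ndufaf help to build the enzyme without staying in it, and muscle that works by oxidation is rich in the complex. In whole muscle, fewer cells of a type and less RNA per cell cannot be told apart.

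The 40 genes comprised 8 of the N module, 7 of the Q module, 7 of the proximal and 10 of the distal membrane arm, 5 assembly factors, the acyl carrier protein Ndufab1, Ndufa4 (first counted with complex I and now regarded as a subunit of cytochrome c oxidase) and the transcribed pseudogene Ndufs5-ps, whose probe may read Ndufs5 as well and is therefore uncertain. The core subunits encoded by mitochondrial DNA were not analysed here. Ndufs1, the largest iron-sulphur subunit of the N module, was the gene that failed the filter, with a mean intensity of 63.6 and a place above the array median in 1 of 40 arrays. Its intensity had a median of 61.0 (54.6 to 72.8) in HF_HF, 63.9 (59.5 to 76.5) in HF_LF, 63.8 (56.8 to 70.6) in LF_HF and 62.5 (55.2 to 66.2) in LF_LF muscle. Mean intensities ran up to 17925 for Ndufa13, a proximal-arm subunit. Because each probe has its own brightness, levels are compared below between groups for 1 probe and never between probes.

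The muscle label was checked on markers: all 12 fast fibre and all 12 slow fibre markers passed the filter. Of the markers of other cells that the array measured, 8 of 8 macrophage, 7 of 8 endothelial, 3 of 6 white adipocyte, 1 of 3 brown adipocyte, 1 of 8 lymphocyte and 1 of 5 cardiac markers passed as well. The 40 arrays correlated with each other at 0.97 or more over all probes. The untested dim probes separated the arrays into a set of 17 and a set of 23, for which no label was found; set 1 held 5 HF_HF, 6 HF_LF, 4 LF_HF and 2 LF_LF arrays. With the groups in the fit, 8 of the 39 members differed between the sets, 4 higher in each, where 28.1% of all tested probes did.

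The question of the post-weaning comparison was what the diet after weaning did in sons of dams on the same diet. Sons of LF dams gave the clearest differences among complex I genes. Ndufa8, Ndufs8 and Ndufa3 were higher in LF_HF than in LF_LF muscle after adjustment over all 12467 probes (limma, Benjamini-Hochberg adjusted p below 0.05), by 1.22-fold, 1.09-fold and 1.14-fold, and no member was lower. Ndufa8 and Ndufa3 are accessory subunits of the proximal membrane arm, and Ndufs8 is a core subunit of the Q module that carries iron-sulphur clusters close to the ubiquinone site. The 3 calls were 7.69% of the 39 members, beside 4.18% of all tested probes called in either direction.

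The promoters of the genes called in a comparison of 2 groups are shown because these members moved with diet and motif matches could be read from them. Each window holds 120 bases before and 30 bases after the transcript start in RefSeq (GRCm38.p6), 5′ to 3′ on the gene's own strand, and capitals mark matches on either strand to the motifs of NRF1 (GCGCANGCG) and YY1 (AAGATGGC), factors known to control many nuclear genes of the respiratory chain. The windows lie at chr2:36049309-36049458 (minus strand) for Ndufa8, chr19:3912745-3912894 (minus strand) for Ndufs8, chr7:3617253-3617402 (plus strand) for Ndufa3 and chr2:140170526-140170675 (plus strand) for Ndufaf5.
Ndufa8: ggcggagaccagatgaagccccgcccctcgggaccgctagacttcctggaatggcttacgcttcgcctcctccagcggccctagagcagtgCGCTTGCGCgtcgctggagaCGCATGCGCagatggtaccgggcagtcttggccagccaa
Ndufs8: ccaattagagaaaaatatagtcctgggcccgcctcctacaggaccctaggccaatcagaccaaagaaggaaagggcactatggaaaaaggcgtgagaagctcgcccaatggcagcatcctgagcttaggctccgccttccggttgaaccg
Ndufa3: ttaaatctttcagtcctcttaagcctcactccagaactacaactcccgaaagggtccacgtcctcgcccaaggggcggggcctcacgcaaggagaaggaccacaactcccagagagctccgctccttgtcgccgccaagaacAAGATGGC
Ndufaf5: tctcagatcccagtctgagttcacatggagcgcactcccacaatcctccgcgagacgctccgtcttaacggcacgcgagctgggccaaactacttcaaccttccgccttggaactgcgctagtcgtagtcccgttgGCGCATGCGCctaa
Ndufa8 held NRF1 matches on the opposite strand whose first bases lie 29 and 9 bases before the start. Ndufa3 held a YY1 match that begins at base 23 of the transcript, and in Ndufaf5 overlapping NRF1 matches on both strands begin at bases 17 and 18, while the Ndufs8 window held none. Over the whole RefSeq windows of 250 bases before and 50 after the start, the NRF1 motif was present in 8 of the 36 member genes with a promoter in the table (22.2%) and in 6.25% of all 32851 promoters. The YY1 motif was present in 7 of 36 (19.4%) and in 2.75% of all promoters. The ETS motif CCGGAAGT was present in 1 of 36 (2.78%, and 3.89% of all promoters), and the ERR motif TCAAGGTCA in 0 of 36 (0.423% of all promoters). A match describes the letters of a window and does not show that a factor binds there.

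Ndufa8 had a median intensity of 5789 (5106 to 6679) in LF_HF muscle and of 4778 (4196 to 5369) in LF_LF muscle. All 10 LF_HF arrays lay above the LF_LF mean, and the ranges of the groups overlapped. Its log2 difference was 0.28 ± 0.05 (SE, limma adjusted p = 0.00215). Ndufs8 had a median of 4162 (3854 to 4382) in LF_HF and of 3811 (3582 to 3916) in LF_LF muscle. Again all 10 LF_HF arrays lay above the LF_LF mean, with a log2 difference of 0.13 ± 0.03 (limma adjusted p = 0.0225). Ndufa3 had a median of 6845 (5392 to 7482) in LF_HF and of 5886 (5582 to 6586) in LF_LF muscle, and 9 of 10 LF_HF arrays lay above the LF_LF mean. Its log2 difference was 0.19 ± 0.05 (limma adjusted p = 0.0356), and its lowest LF_HF array, replicate 5, lay below every LF_LF array.

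**Figure D1:**
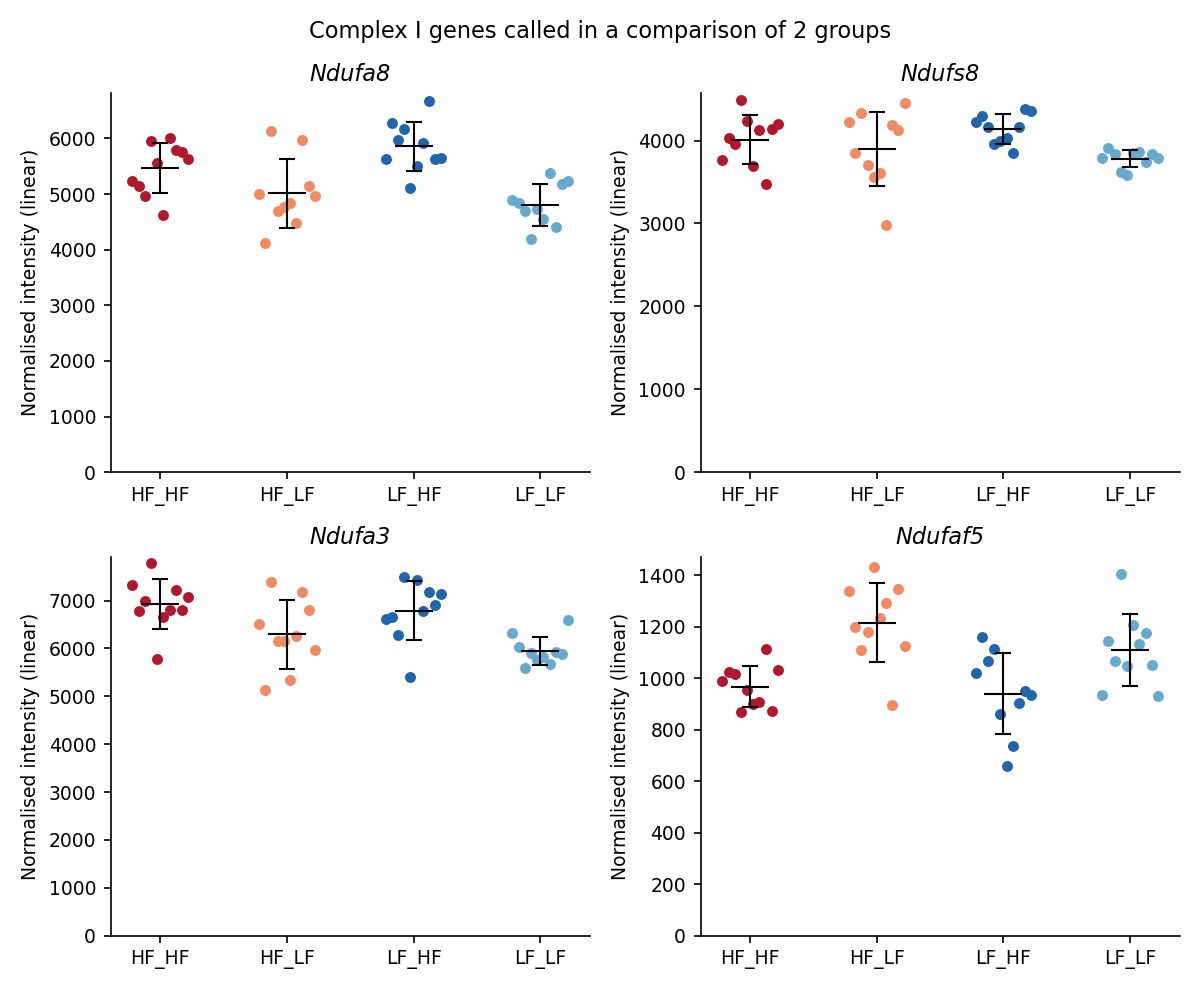
Normalised intensity (linear scale) of Ndufa8, Ndufs8, Ndufa3 and Ndufaf5 in each array, with 10 arrays in each of the HF_HF, HF_LF, LF_HF and LF_LF groups; horizontal marks and bars give the mean ± SD. Ndufa8 averaged 5856 in LF_HF and 4808 in LF_LF muscle, and Ndufaf5 averaged 968 in HF_HF and 1216 in HF_LF muscle.

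The next members in order of p did not pass. Ndufa9, a Q-module accessory subunit, differed by 0.16 ± 0.05 on the log2 scale (limma adjusted p = 0.0514) with medians of 6127 in LF_HF and 5464 in LF_LF muscle, and Ndufb7, a distal-arm protein with paired cysteine motifs, by 0.18 ± 0.05 (limma adjusted p = 0.0620) with medians of 722 in LF_HF and 664 in LF_LF muscle. The log2 differences of the assembly factor Ndufaf4, the distal-arm subunit Ndufb3 and Ndufa4 were 0.20, 0.18 and 0.11, with adjusted p of 0.0840 to 0.0891 (limma). At an unadjusted p below 0.05, 17 of the 39 members (43.6%) were higher and 1 (2.56%) was lower in LF_HF muscle, beside 8.64% and 8.72% of all tested probes. The log2 difference was above 0 for 35 of 39 members and for 46.3% of all probes, with a median of 0.10 for the members and of -0.01 for all probes.

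By role, 2 of 7 proximal-arm genes and 1 of 7 Q-module genes were called higher, and none of 7 N-module genes, 10 distal-arm genes or 5 assembly factors. Median log2 differences were 0.14 for the distal arm, 0.07 for the Q module, 0.06 for the proximal arm, 0.05 for the assembly factors and 0.05 for the N module. All 7 tested N-module and all 7 Q-module genes had differences above 0, up to 0.13 for Ndufv1, the flavoprotein that binds NADH, and up to 0.16 for Ndufa9. Among the assembly factors, Ndufaf5, which hydroxylates an arginine of the core subunit NDUFS7 (shown for the human protein), ran the other way, at -0.25 ± 0.09 (limma adjusted p = 0.139). Of the 9 tested assembly factors of complex I outside the Nduf names, 0 were called in either direction and the median was 0.00; at an unadjusted p below 0.05, 1 was higher and 0 were lower. In the other respiratory complexes the genes called were 1 of 5 for complex II, 1 of 7 for complex III, 3 of 13 for complex IV and 2 of 15 for the ATP synthase, all higher, with medians of 0.16, 0.08, 0.14 and 0.12.

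Other markers moved with the same comparison. The slow fibre score, the mean log2 deviation of the 12 markers, averaged 0.57 ± 0.54 (SD, n = 10; -0.31 to 1.29) in LF_HF and -0.37 ± 0.88 (-1.58 to 1.10) in LF_LF muscle. With this score as a covariate Ndufa8 kept its call (limma adjusted p = 0.0463), whereas Ndufs8 (log2 difference 0.12, adjusted p = 0.164) and Ndufa3 (0.19, adjusted p = 0.153) did not. The endothelial score (7 of 8 markers tested) averaged 0.10 ± 0.10 (-0.14 to 0.22) in LF_HF and -0.12 ± 0.07 (-0.23 to -0.02) in LF_LF muscle, and the white adipocyte score -0.43 ± 0.53 (-1.27 to 0.66) in LF_HF and 0.37 ± 1.06 (-0.57 to 2.33) in LF_LF muscle; their part in the result was not tested. LF_LF replicates 2 and 5 stood apart, at 2.15 and 2.72 on the lymphocyte score and 1.40 and 2.52 on the brown adipocyte score (1 tested marker each), where the highest of the other LF_LF arrays had 0.05 and -0.13. On the white adipocyte score (3 tested markers) the same arrays had 2.33 and 2.26, where the next highest LF_LF array had 0.57. The LF_LF median of that score was -0.03, so its LF_LF mean rested largely on these arrays. Without the arrays high in immune markers (1 LF_HF array and LF_LF replicates 2 and 5) Ndufa3 lost its call (0.17 ± 0.05, limma adjusted p = 0.0950), and Ndufa8 (adjusted p = 0.00729) and Ndufs8 (adjusted p = 0.0425) kept theirs. This choice thus also took out the 2 LF_LF arrays highest on the white adipocyte score. Across all 40 arrays, as deviations from group means, the mean of the 39 members and the slow fibre score had a Pearson r of 0.19 and a Spearman rho of -0.00, and r was -0.07 without the 2 arrays farthest from the median. Members were not scaled to their own SD in this mean, so the most variable genes weighed most in it. Ndufb2, Ndufb4, Ndufb5 and Ndufb9 had SDs within groups of 0.40 to 0.53, against a median of 0.12 over the members. The mean of these 4 had an r of 0.05 with the score. For the mean of the 39 members, r within set 1 (17 arrays) was 0.30, but rho was 0.01. Without the 2 farthest arrays of set 1 this r was -0.30. Within set 2 (23 arrays) r was 0.03 and rho 0.05, and r was 0.05 without the 2 farthest arrays. Single members differed in this: the deviations of Ndufb3 had a Pearson r of 0.60 with the score, Ndufv1 0.51, Ndufs8 0.47 and Ndufc1 -0.44. HF_LF replicate 7 had the lowest slow fibre score (-2.08). The same array had the lowest intensity of the 40 arrays for Ndufb3 (2433.6), Ndufs8 (2979.5) and Ndufv1 (4769.3). How far the r values of these single members rest on single arrays was not tested.

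The calls depended on single cages. Without cage 4 (2 LF_HF and 3 LF_LF males) 0 members were called, with Ndufa8 at 0.23 ± 0.06 (limma adjusted p = 0.0609), and Ndufa3 lost its call without any of 5 of the 6 cages (kept without cage 9) and Ndufs8 without any of 4 (kept without cage 8 or 9). When all 40 arrays were fitted together, Ndufs8 (limma adjusted p = 0.156) and Ndufa3 (adjusted p = 0.0569) were not called and Ndufa9 was (adjusted p = 0.0387). With 1 value per cage and group Ndufa8 alone remained (0.28 ± 0.06, limma adjusted p = 0.0377), and within the cages that held both diets (10 arrays) it differed by 0.32 ± 0.07 (adjusted p = 0.0764). The call of Ndufa3 was lost when any of 13 of the 20 arrays was left out. Set 2 held 8 LF_LF and 6 LF_HF arrays. Its log2 level against set 1 was -0.11 for Ndufa8, -0.09 for Ndufa3 and 0.02 for Ndufs8. With the array set as a block Ndufa3 lost its call (0.17 ± 0.05, limma adjusted p = 0.0599). Ndufa8 (0.27 ± 0.05, adjusted p = 0.00410) and Ndufs8 (0.13 ± 0.03, adjusted p = 0.0283) kept theirs. Ndufa8 had a second tested probe, which gave 0.17 (limma adjusted p = 0.0610), and the deviations of its probes correlated at 0.57 (Spearman rho 0.56, and 0.66 without the 2 farthest arrays).

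In sons of HF dams the post-weaning diet gave a single call, and it was downward. Ndufaf5 was lower in HF_HF than in HF_LF muscle, at 0.80-fold. Its median intensity was 971 (869 to 1115) in HF_HF and 1216 (896 to 1433) in HF_LF muscle. All 10 HF_HF arrays lay below the HF_LF mean, although the ranges overlapped, with 2 HF_LF arrays (896 and 1110) below the highest HF_HF array. The log2 difference was -0.32 ± 0.07 (limma adjusted p = 0.0440). This call was 2.56% of the 39 members, beside 0.361% of all tested probes called in either direction. It was lost when any of 15 of the 20 arrays was left out, with log2 differences between -0.37 and -0.29, and without any of 5 of the 6 cages. Without cage 23, which held 3 males of each group, the difference was -0.27 ± 0.09 (limma adjusted p = 0.440). A dimmer probe of the gene gave -0.42 ± 0.21 (adjusted p = 0.470), and its deviations were unlike those of the brighter probe (r 0.05, rho 0.11 and -0.00 without the 2 farthest arrays).

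No other member passed in HF_HF against HF_LF muscle. The members next in order were Ndufs6, a zinc-binding N-module subunit (0.13 ± 0.06), Ndufb7 (0.13 ± 0.06), Ndufa3 (0.14 ± 0.06) and Ndufa4 (0.09 ± 0.04), with adjusted p of 0.370 to 0.394 (limma). At an unadjusted p below 0.05, 4 members (10.3%) were higher and 1 was lower, beside 6.1% and 5.27% of all tested probes. The difference was above 0 for 28 of 39 members and 49.9% of all probes, with a median of 0.04 for the members, which became 0.00 without cage 23. Ndufa8, called in sons of LF dams, had medians of 5595 in HF_HF and 4896 in HF_LF muscle and a log2 difference of 0.13 (95% interval -0.01 to 0.27, limma adjusted p = 0.470). Ndufs8 differed by 0.05 (-0.09 to 0.18). The distal arm had a median of -0.04 and the proximal arm one of 0.08, and 0 genes of complexes II to V were called, with 4 higher and 0 lower at an unadjusted p below 0.05. The slow fibre score averaged 0.05 ± 0.63 (SD, n = 10) in HF_HF and -0.25 ± 1.00 in HF_LF muscle, with overlapping ranges, and with the score as a covariate Ndufaf5 differed by -0.30 ± 0.07 (limma adjusted p = 0.0512).

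Whether the post-weaning difference depended on the dam's diet was tested by the interaction over all 40 arrays, (HF_HF minus HF_LF) minus (LF_HF minus LF_LF). It called 0 members, and 0% of all probes. At an unadjusted p below 0.05 it gave 2 members, Ndufa9 (-0.18 ± 0.07) and Ndufb5 (-0.56 ± 0.25), both with an adjusted p of 0.908 (limma), beside 5.19% of all probes. The interaction of Ndufa8 was -0.15 (95% interval -0.32 to 0.01), that of Ndufs8 -0.08 (-0.23 to 0.06), that of Ndufa3 -0.04 (-0.21 to 0.12) and that of Ndufaf5 -0.07 (-0.31 to 0.17). All 4 intervals included 0, and their widths bound how far the post-weaning differences in sons of HF and LF dams could be told apart.

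Over both maternal diets together, with 20 HF-fed against 20 LF-fed males and the dam's diet in the fit, 7 members were called, 6 higher and 1 lower, where 7.76% of all probes were called in either direction. Ndufa8 was higher by 0.21 ± 0.04 (limma adjusted p = 0.00137), Ndufa3 by 0.16 ± 0.04 (adjusted p = 0.00684) and Ndufa10, another proximal-arm subunit related to nucleoside kinases, by 0.11 ± 0.04 (adjusted p = 0.0490). The distal-arm genes Ndufb7 and Ndufb3 were higher by 0.16 ± 0.04 (limma adjusted p = 0.00763) and 0.14 ± 0.04 (adjusted p = 0.0352), and Ndufa4 by 0.10 ± 0.03 (adjusted p = 0.00958). Ndufaf5 was lower, by -0.29 ± 0.06 (limma adjusted p = 0.00129). The second tested probe of Ndufa8 gave 0.10 ± 0.04 (limma adjusted p = 0.132) and that of Ndufaf5 -0.25 ± 0.15 (adjusted p = 0.354), neither of them called. Without the 4 arrays high in immune markers the calls of Ndufa10 (0.10, limma adjusted p = 0.124) and Ndufa4 (0.08, adjusted p = 0.0548) were lost. Called members thus lay in the membrane arm (5 of 17 tested genes) and among the assembly factors, besides Ndufa4, while 0 of 14 tested genes of the N and Q modules passed. At an unadjusted p below 0.05 (limma), 6 of those 14 were higher and 0 lower. In the membrane arm, 5 of 7 proximal and 3 of 10 distal genes were higher at that threshold, and 0 were lower. Of all 12467 tested probes, 1324 were higher and 1312 lower at the same threshold. The difference between the arms was not tested.

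For Ndufb7 the medians were 712 (591 to 787) in HF_HF against 645 (562 to 740) in HF_LF muscle, and 722 (656 to 816) in LF_HF against 664 (538 to 701) in LF_LF muscle. For Ndufa4 they were 16528 (15414 to 17981) in HF_HF against 15814 (14213 to 16618) in HF_LF muscle, and 15975 (15263 to 17549) in LF_HF against 15020 (13730 to 15882) in LF_LF muscle. In both genes the HF-fed group was higher in median under either maternal diet, with overlapping ranges. With the slow fibre score as a covariate the pooled difference of Ndufb3 was 0.07 (limma adjusted p = 0.313), and that of Ndufa10 was 0.08 (adjusted p = 0.233). With 1 value per cage and group 0 members were called in this fit, with Ndufa3 at 0.15 (limma adjusted p = 0.0624) and Ndufaf5 at -0.23 (adjusted p = 0.132).

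**Figure D2:**
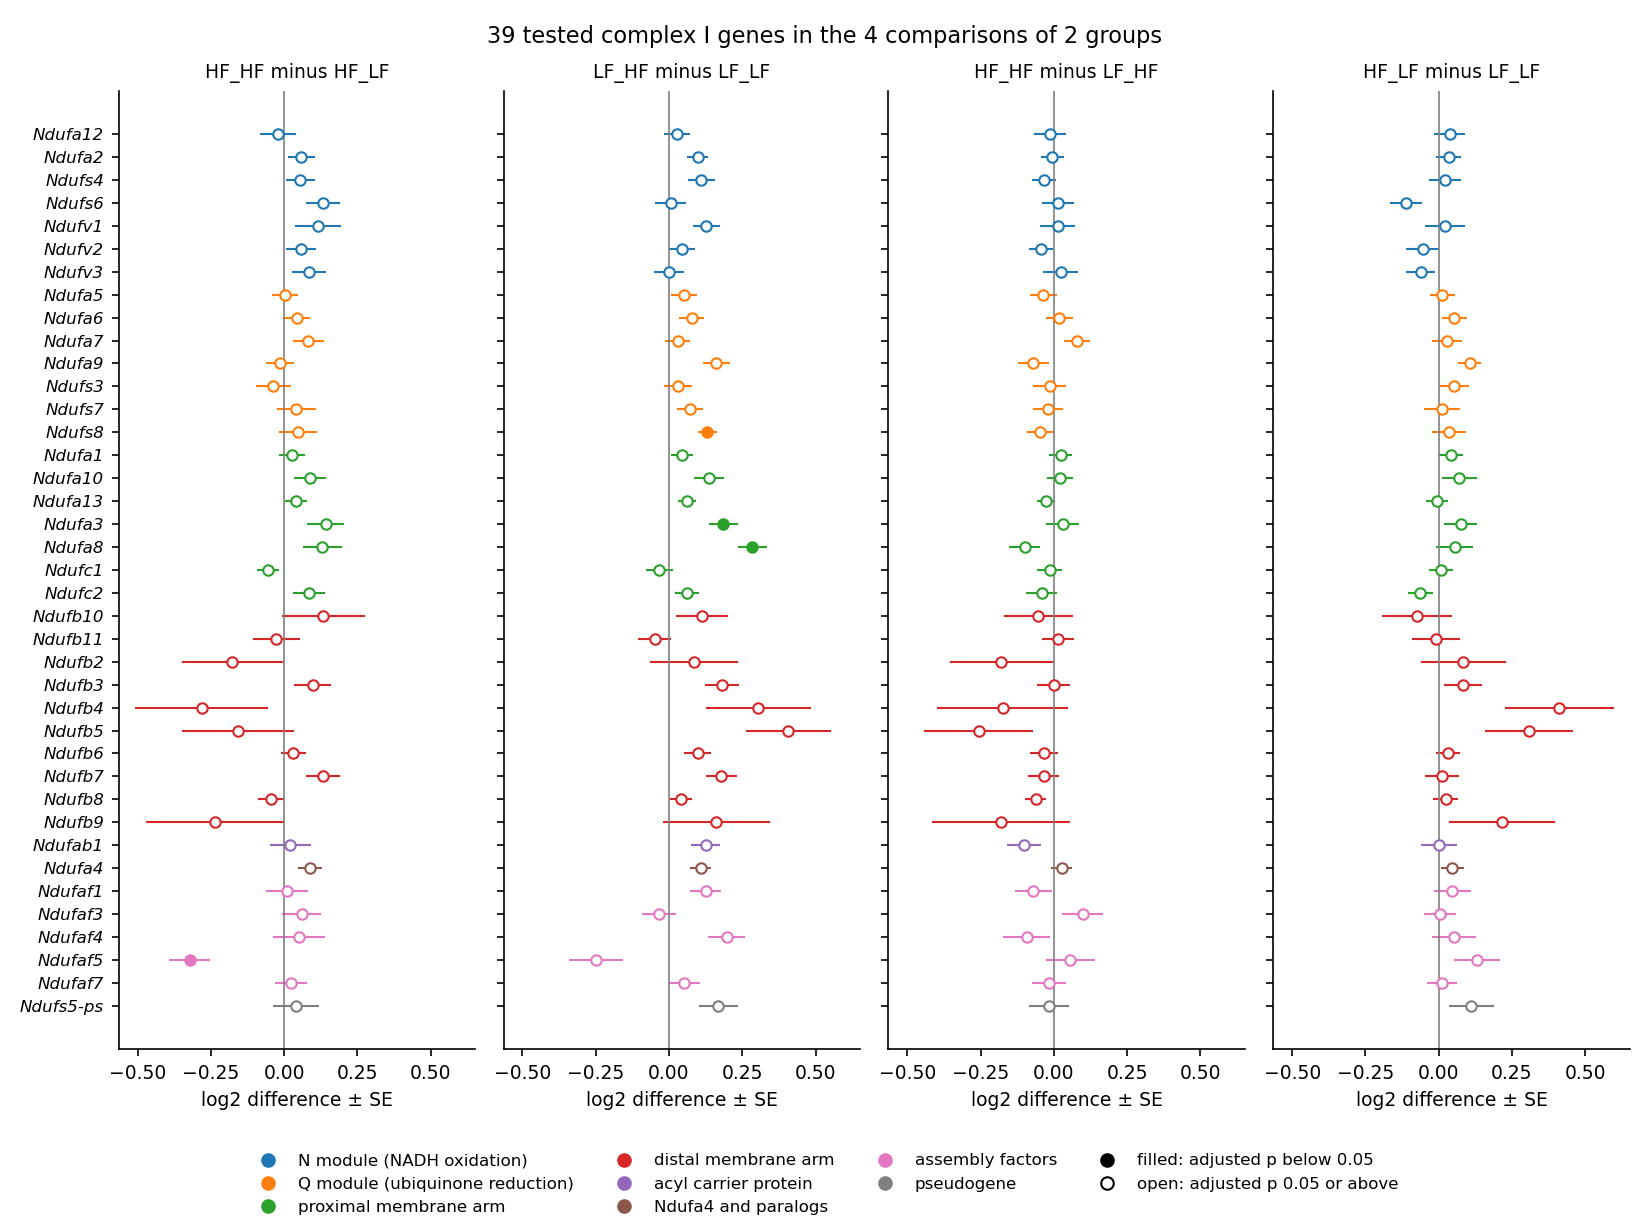
Log2 difference ± SE of the 39 tested Nduf genes, Ndufa4 and the pseudogene Ndufs5-ps among them, in the 4 comparisons of 2 groups (20 arrays each). Points are coloured by role, and filled points have a limma adjusted p below 0.05. In LF_HF minus LF_LF 35 of 39 points lie above 0 and 3 are filled, in HF_HF minus HF_LF the filled point is Ndufaf5, and neither maternal comparison has a filled point.

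The maternal comparison asked what the dam's diet did in sons fed the same diet after weaning. Among LF-fed sons (HF_LF against LF_LF) 0 members were called by limma, and 0.016% of all probes were. At an unadjusted p below 0.05, 2 members were higher and 1 was lower, where 8.21% of all probes passed in either direction. These were Ndufa9 (0.11 ± 0.04, with all 10 HF_LF arrays above the LF_LF mean), Ndufb4 (0.41 ± 0.19, with 7 of 10) and Ndufs6 (-0.11 ± 0.05), with adjusted p of 0.546 to 0.604 (limma). Ndufa9 had a median of 6015 (5604 to 6415) in HF_LF and of 5464 (5279 to 6191) in LF_LF muscle. The difference was above 0 for 32 of 39 members, where 49.6% of all probes were, and the members' median was 0.03. This comparison shares the LF_LF arrays with that of LF_HF against LF_LF, in which the members' median was 0.10.

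Among HF-fed sons (HF_HF against LF_HF) limma called 0 members and 0% of all probes. At an unadjusted p below 0.05 the counts were 0 members and 7.24% of all probes. The smallest p values belonged to Ndufa8 (-0.10 ± 0.05), Ndufa7 (0.08 ± 0.04), Ndufab1 (-0.10 ± 0.06), Ndufb8 (-0.06 ± 0.04) and Ndufaf3 (0.10 ± 0.07), with adjusted p of 0.736 to 0.818 (limma). Of these, Ndufab1 and Ndufaf3 have dim probes, with mean intensities of 87.3 and 92.2. The difference was above 0 for 12 of 39 members, where 51% of all probes were, and the members' median was -0.02. Ndufa8 had medians of 5595 (4627 to 6002) in HF_HF and of 5789 (5106 to 6679) in LF_HF muscle. Over both post-weaning diets together the maternal fit called 0 members, beside 0.594% of all probes, and at an unadjusted p below 0.05 it gave 0 members beside 9.96% of all probes. The member with the smallest p there was Ndufa7, at 0.05 ± 0.03 (limma adjusted p = 0.601).

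A group of distal-arm genes varied far more between animals of 1 diet group than the rest. The SD of log2 intensity within groups was 0.53 for Ndufb9, 0.51 for Ndufb4, 0.42 for Ndufb5, 0.40 for Ndufb2 and 0.29 for Ndufb10, against a median of 0.12 over the members and of 0.13 over the other tested probes, of which 5.23% reached 0.29. All 5 are accessory subunits toward the tip of the membrane arm. Their highest array was 5.26 times the lowest for Ndufb9, 4.7 times for Ndufb4, 4.51 times for Ndufb5, 3.81 times for Ndufb2 and 2.63 times for Ndufb10, where the other 34 tested members had ratios of 1.22 (Ndufa13) to 2.17 (Ndufaf5) with a median of 1.44.

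Ndufb5 had a median intensity of 1347 (990 to 2378) in HF_HF, 1736 (822 to 2928) in HF_LF, 1660 (1075 to 3712) in LF_HF and 1332 (1102 to 1708) in LF_LF muscle. Ndufb4 had a median of 305 (208 to 571) in HF_HF, 438 (243 to 937) in HF_LF, 388 (239 to 977) in LF_HF and 297 (238 to 489) in LF_LF muscle. The highest value of each gene came from LF_HF replicate 5, and the LF_LF arrays spread least. The log2 difference of Ndufb5 in LF_HF against LF_LF muscle, 0.41 ± 0.15, was the highest of any member there (limma adjusted p = 0.125), yet none of the 4 most variable genes was called in any comparison.

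The 4 most variable genes moved together. Over the 40 arrays, as deviations from group means, their pairs had Pearson r of 0.81 to 0.96 and Spearman rho of 0.80 to 0.91, and r of 0.75 to 0.94 without the 2 farthest arrays. Within set 1 r was 0.87 to 0.96 and within set 2 it was 0.92 to 0.96. The genes were picked for this pattern, so these values describe it and carry no test. On the mean of the 4, LF_HF replicate 5 stood 1.16 and HF_LF replicate 6 stood 1.02 above its group mean, and HF_LF replicate 7 stood 0.99 and LF_HF replicate 4 stood 0.80 below it, on the log2 scale. Ndufb10 followed less closely, with r of 0.43 to 0.76 with the single genes.

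**Figure D3:**
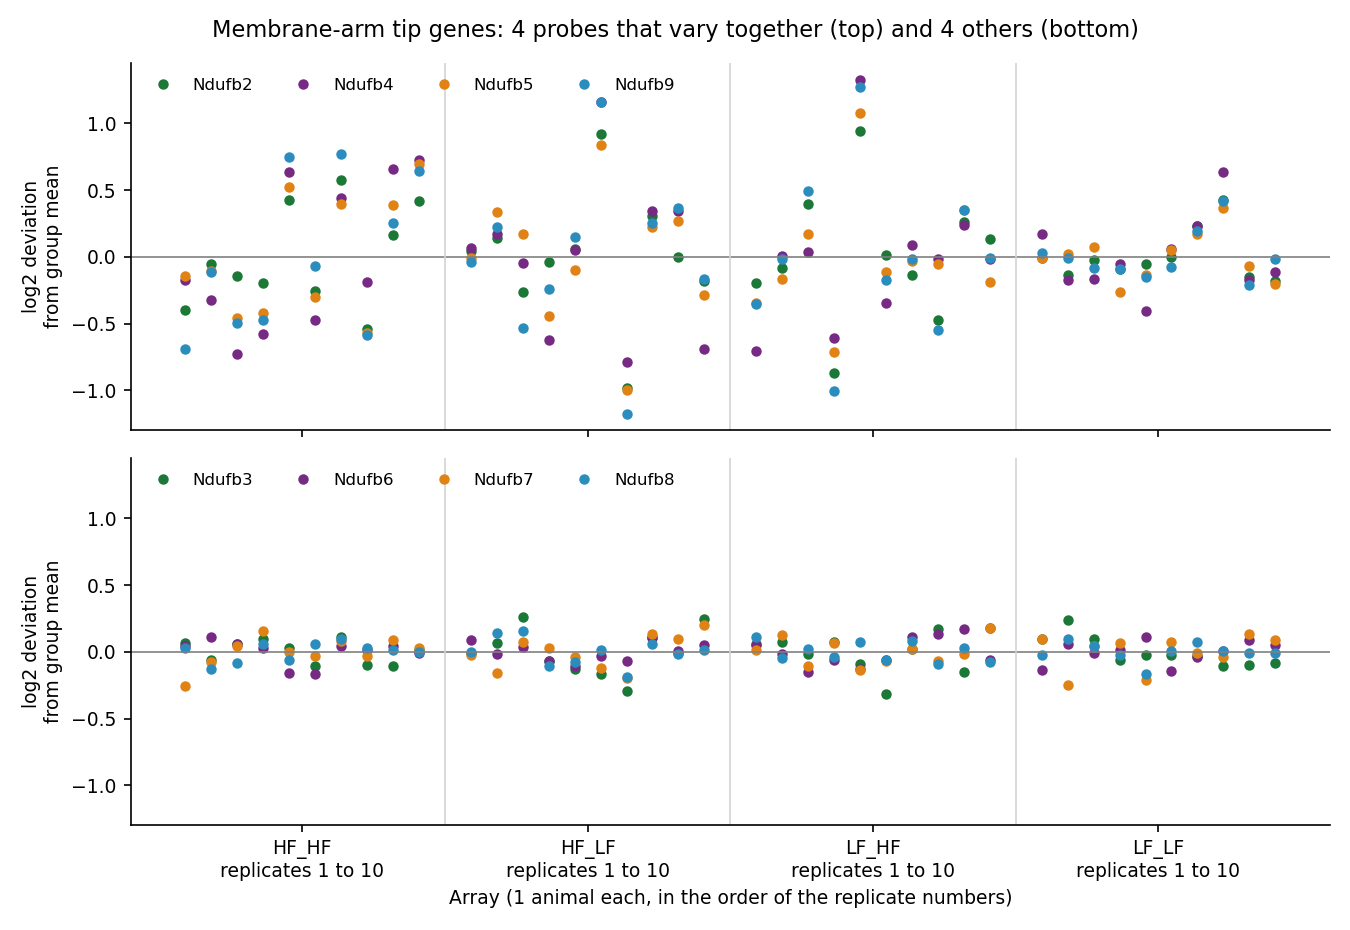
Log2 deviation from the group mean in each of the 40 arrays (10 per group, in the order of their replicate numbers) for Ndufb2, Ndufb4, Ndufb5 and Ndufb9 (top) and for Ndufb3, Ndufb6, Ndufb7 and Ndufb8 (bottom), on 1 scale. The top 4 move together, with pairwise r of 0.81 to 0.96, and their mean stands 1.16 above the group mean in LF_HF replicate 5 and 0.99 below it in HF_LF replicate 7, while the bottom 4 spread less around 0.

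The rest of the family held members that ran with these genes and members that ran against them. Over both kinds, the mean of the 4 had an r of -0.03 (rho 0.06, and -0.06 without the 2 farthest arrays) with the mean of the 34 other tested members. Some members ran with the 4, among them Ndufab1 (r 0.67, rho 0.67, and 0.58 without the 2 farthest arrays) and Ndufs3 (r 0.64, rho 0.63, and 0.69), a core subunit of the Q module. The Ndufab1 probe was dim, with a mean intensity of 87.3. Others ran against them, among them Ndufv3 (r -0.69, rho -0.63, and -0.60 without the 2 farthest arrays), Ndufs6 (r -0.65, rho -0.62, and -0.51) and Ndufaf7 (r -0.64, rho -0.51, and -0.48). Ndufaf7 is an assembly factor. Of the genes called in LF_HF against LF_LF muscle, Ndufa3 ran against the 4 (r -0.508, rho -0.305, and -0.288 without the 2 farthest arrays). Ndufs8 ran weakly with them (r 0.278, rho 0.27, and 0.476), and Ndufa8 lay near 0 (r -0.01, rho 0.06, and 0.159).

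Different probes of 1 gene disagreed on the movement in some, but not all, of the 8 members with a second tested probe. Ndufs4, an N-module subunit whose loss causes Leigh syndrome in humans, had 4 tested probes. The brightest had an r of -0.17 (rho -0.13) with the mean of the 4 distal-arm genes, and the 3 dimmer ones 0.92, 0.91 and 0.94 (rho 0.91, 0.86 and 0.93), while none of those 3 followed the brightest (r -0.05 to 0.04). For Ndufa5, of the Q module, the brightest probe had an r of -0.43 and the dimmer one 0.95, and the probes of this gene had an r of -0.44 with each other. For Ndufaf5 the brighter probe had an r of -0.12 and the dimmer one 0.91. What sets such probes apart was not tested, since probe sequences were not analysed here.

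**Figure D4:**
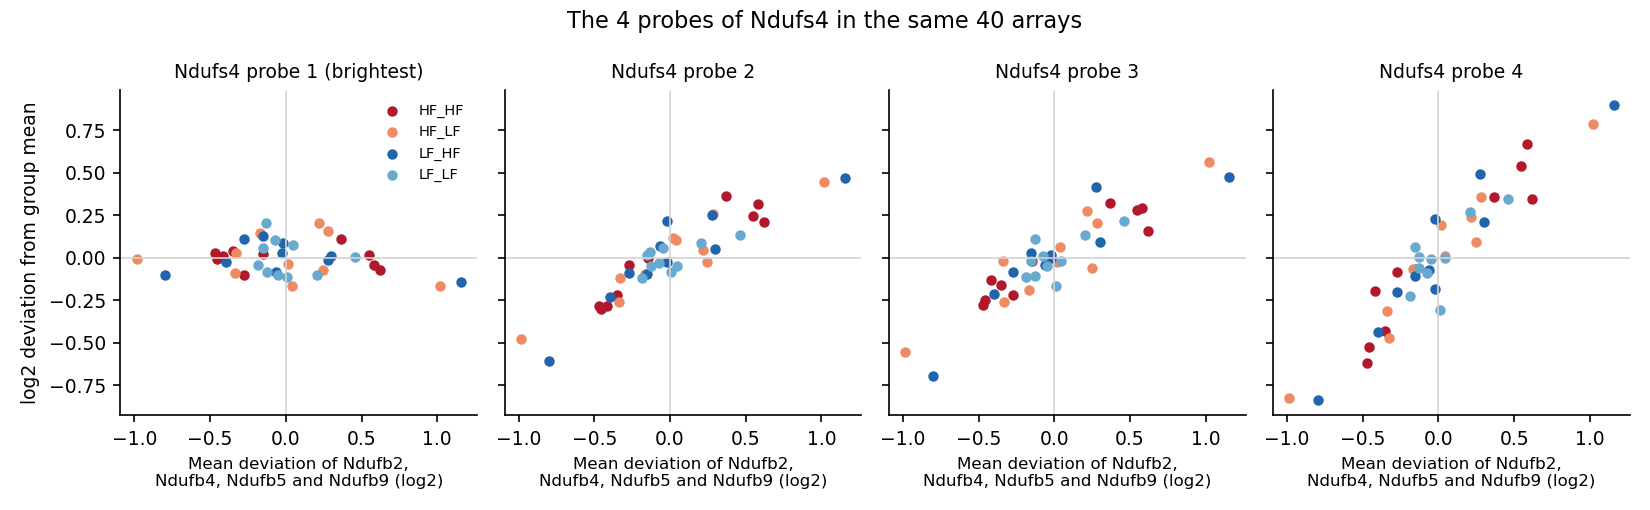
Log2 deviation from the group mean of each of the 4 tested Ndufs4 probes (y axis) against the mean deviation of Ndufb2, Ndufb4, Ndufb5 and Ndufb9 (x axis) in 40 arrays, coloured by group. The brightest probe is flat (r -0.17) and the 3 dimmer probes rise along the axis (r 0.91 to 0.94).

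The movement was not confined to complex I. Of the 12417 other tested probes, 91 had an r above 0.9 with the mean of the 4, and the first principal component of the deviations of all those probes, which held 19.5% of their variance, had an r of 0.94 with it (rho 0.87, and 0.90 without the 2 farthest arrays). The mean of the 4 had a Pearson r of 0.05 with the slow fibre score. With the first component as a covariate, a choice made after seeing the data, 6 members were called in LF_HF against LF_LF muscle, namely Ndufa3, Ndufa8, Ndufs8, Ndufa9, Ndufb5 and Ndufb7. The maternal comparisons called 0 members with the component. Built from deviations from group means, the component could not change a difference between groups, only its SE. For Ndufa3 in LF_HF against LF_LF muscle the log2 difference stayed at 0.186, and its SE went from 0.0498 to 0.0375. The added calls therefore came without any change in the differences.

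The members as a whole were loosely tied to each other. Over 741 pairs of the 39 tested members the median r of their deviations was 0.13 (0.18 within set 1 and 0.10 within set 2), against -0.01 between members and other tested probes. Without the 5 most variable distal-arm genes the median over pairs of the 34 other members was 0.16. Closest to the mean of the other members, each scaled to its own SD, were Ndufs8 (r 0.74, rho 0.67), Ndufs7 (r 0.73, rho 0.62) and Ndufa10 (r 0.60, rho 0.56), and without the 2 farthest arrays their r was 0.63, 0.66 and 0.49. Ndufs7 and Ndufs8 are neighbouring core subunits that carry the last iron-sulphur clusters before ubiquinone. Farthest were Ndufaf5 (r -0.28, rho -0.34), the distal-arm subunit Ndufb11 (r -0.13, rho -0.15) and Ndufab1 (r -0.10, rho -0.13). The probes of Ndufb11 and Ndufab1 were dim, with mean intensities of 130 and 87.3, and what this does to their r was not tested. Arrays share their normalisation, their array sets and their cages, so these correlations are descriptions only.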

How the data were processed

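The authors hybridised muscle RNA of each animal to an Illumina MouseRef-8 v2.0 beadchip and quantile-normalised the fluorescence over the 40 arrays; the deposited intensities are linear, from 47.2 to 32250.5, and no detection p-values were used here. The software version was not given in the sources used here. Symbols came from the platform annotation, and all 40 member symbols matched the RefSeq gene table. Log2 intensities were fitted with limma 3.58.1 (R 4.3.3; lmFit, eBayes with an intensity trend) on the arrays of the groups compared, with Benjamini-Hochberg adjustment over 12467 probes and a threshold of 0.05; the code was tested on simulated data. The number of arrays limits the precision, and intervals are 95% from limma's moderated t. GEO's labels give diets and cages but no replicate numbers, so replicates were numbered in accession order. Named were the members called in any comparison, the 5 with the smallest p in each, those with extreme mean intensity or not tested, those correlating most and least with the rest, and examples per role; genes of the co-varying distal arm were named after their values were seen. The members and lists were chosen with earlier results of these data known. Alternatives covered the filter, normalisation, offset, background, variance model, arrays in the fit, weights, cage, array set, slow fibre score, immune markers, single arrays and cages, the probe, and 1 shared component.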

Additional observations from a re-analysis of the deposited data

Results flagged for a closer look

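Among 160 sets of 10 arrays (40 genes in 4 groups), 12 had an array whose gap to the nearest other passed Dixon's 95% critical share of the whole range on the log2 scale, where chance gives about 1 in 20. LF_HF replicate 5 gave 4 of them: high for Ndufb4 (976.5, next 459.2), and low for Ndufa3 (5392.2, next 6282.3), Ndufs6 (8155.2, next 9636.9) and Ndufv3 (4293.5, next 5105.7). LF_LF replicate 5 was low for Ndufb8 (11745.5, next 12943.5) and Ndufs7 (6811.6, next 7721.7). The others were Ndufa13 in HF_LF replicate 2 (20005.2, high), Ndufa2 in HF_LF replicate 9 (7614.9, high), Ndufa3 in HF_HF replicate 5 (5777.7, low), Ndufaf1 in LF_HF replicate 4 (885.8, low), Ndufb11 in LF_LF replicate 7 (105.6, low) and Ndufs6 in LF_LF replicate 10 (12101.5, high).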

How the results depend on the processing

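No paired analysis was possible by replicate number because the labels carry none shared between groups, and animals were matched by cage instead. For LF_HF minus LF_LF the count of called members was 3, and it became 1 without a filter, 5 with probes above the median in all 40 arrays, 6 with array weights, 1 with 1 value per cage and group, 1 within cages of both diets (Ndufaf4), 0 within either array set, 1 with the slow fibre score, 6 with the shared component and 2 (Ndufa8 and Ndufa9) in 1 fit of 40 arrays; leaving out 1 array gave 2 to 5 (5 without LF_LF replicate 2 or LF_HF replicate 5) and leaving out 1 cage 0 to 4. For HF_HF minus HF_LF the count of 1 became 0 without a filter, in 1 fit of 40 arrays, with 1 value per cage, within cages of both diets, within either array set, with the slow fibre score, without 1 array high in immune markers and with the second probe; single arrays and cages gave 0 to 1. The pooled post-weaning count of 7 became 0 with 1 value per cage, 1 within cages of both diets, 0 within set 1 and 3 within set 2, and leaving out a cage gave 4 (cage 23) to 10. The maternal and interaction counts were 0 under every alternative run. No median of the members moved by more than the SD of the members' mean between animals of a group. That SD was 0.04 to 0.08 in the single groups, so this limit could not flag a change of sign in medians near 0. The median of HF_HF minus HF_LF (0.04) became 0.00 without cage 23. The pooled maternal median (-0.0007) ran from -0.0056 to 0.022 when single cages were left out. Named members changed sign in 4 cases, none of them called: Ndufab1 in HF_HF minus LF_HF (0.0412 within set 1), Ndufv2 (0.0232 within set 2) and Ndufaf5 (-0.0811 with its second probe) in the pooled maternal fit, and the interaction of Ndufs6 (-0.0171 within set 1). Members kept their direction under every alternative of a comparison that called them, and the causes of lost calls were not tested. The shared component could change only the SE of a difference, not the difference itself.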
